A study of Mus musculus with 8 samples.

Results

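The P2Y nucleotide receptors, the adenosine receptors and the surface enzymes that link them were examined in cultured hepatic macrophages from mice. The set held 10 of the 55401 genes in the count table, chosen by symbol: *P2ry2*, *P2ry6*, *P2ry12*, *P2ry13*, *P2ry14*, *Adora2a*, *Adora2b*, *Adora3*, *Entpd1* and *Nt5e*. Of these, 9 passed the filter of 0.5 CPM (counts scaled to the total of their library) in at least 1 library and were tested, and *Nt5e* did not. Each of the 9 was above that level in every library. Macrophages labelled normal came from livers of WT C57BL/6J mice on a standard diet. Those labelled steatotic came from livers of MC4R-KO mice on the same background, a knockout of the melanocortin 4 receptor gene. The MC4R-KO mice had eaten a Western diet for 6 to 10 wk by the paper's protocol, while its results text gives a shorter upper limit. Cells were selected by magnetic separation with an antibody to the macrophage surface protein encoded by *Adgre1*, plated on collagen and given either vehicle (Veh) or 500 µg/ml cholesterol crystals (CC) for 24 h. There were 2 libraries in each of the 4 groups. Male mice are given in the methods for a longer feeding of this model, but age and sex are not stated for the mice behind these libraries, nor is it stated whether libraries of a group came from separate animals or cultures, so that p-values measure the spread between libraries, which may be technical. Liver label, genotype and diet change together in this design and cannot be told apart.

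Nucleotides that leave stressed or dying cells act on P2Y receptors, which are G protein-coupled receptors of the plasma membrane. CD39, encoded by *Entpd1*, removes phosphates from extracellular ATP and ADP to leave AMP, and CD73, encoded by *Nt5e*, turns AMP into adenosine. Adenosine acts on its own G protein-coupled receptors, of which the products of *Adora2a* and *Adora2b* raise cyclic AMP and in macrophages are known to restrain the release of inflammatory cytokines.

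*Mc4r*, the targeted gene, had 22 to 72 counts in every library labelled steatotic and 0 in the 4 others. These are low levels, 0.299 to 0.966 CPM, and those with Veh (0.410 and 0.299 CPM) were under the filter of 0.5 CPM. This is not the order that a gene without transcript in MC4R-KO mice would give. Whether the KO allele still yields such reads cannot be told from gene counts, and normal and steatotic below are labels of libraries. Monocyte markers, whose sums are given below, were higher with the label steatotic. Total counts ranged from 58668655 to 74529462 per library. A count of 3 corresponded to 0.0403 to 0.0511 CPM, and 3 fragments, if 1 fragment gave about 4 counts, to 0.161 to 0.205 CPM, limits that cover counting error only. All 8 macrophage markers were detected, with a summed level of 10019 to 16171 CPM per library. In bulk RNA, fewer cells of a type and less RNA per cell cannot be told apart.

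In the annotation of GRCm38 (mm10), *P2ry12*, *P2ry13* and *P2ry14* lie side by side on chromosome 3, all on the minus strand and within 149.0 kb. *P2ry12* spans 59216272 to 59262871, *P2ry13* spans 59207892 to 59210882 and *P2ry14* spans 59113855 to 59153618. All 3 lie inside *Med12l*, a Mediator subunit gene on the opposite strand, whose exons share 9 bases with those of *P2ry12* and 0 with the other two. *P2ry6* (chromosome 7, 100937630 to 100974649) and *P2ry2* (chromosome 7, 100996568 to 101012866) are neighbours on the minus strand, 21.9 kb apart. The other genes lie apart from each other, *Adora2a* on chromosome 10 (75316877 to 75334784), *Adora2b* on chromosome 11 (62248984 to 62266453), *Adora3* on chromosome 3 (105870858 to 105908926), *Entpd1* on chromosome 19 (40612366 to 40741602) and *Nt5e* on chromosome 9 (88327197 to 88372092), all on the plus strand. *Adora3* and *Entpd1* overlap other annotated genes on their own strand. Exons of *Adora3* share bases with *Tmigd3*, while the pseudogene *Gm8783*, at 4.51 to 6.94 CPM, lies within *Entpd1* and shares 0 exon bases with it.

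Promoters of 8 of the 10 genes were matched in RefSeq (GRCm38.p6), 13 promoters in all. The 250 bases before the start are printed, 5′ to 3′ on the strand of the gene, for the 3 neighbours on chromosome 3, whose levels are described together below, and for *Adora2b*, an adenosine receptor gene that rose with CC under the label steatotic. Windows of 300 bases, to 50 bases after the start, were searched on both strands for motifs of factors that act in macrophages. TGACG is part of the cyclic AMP response element. The core of the hypoxia response element is ACGTG. An E-box, written CACGTG, also holds that core. AP-1 factors bind TGANTCA. Factors of the EGR family bind GCGTGGGCG. They also bind the variant GCGGGGGCG. PU.1 and other ETS factors bind a core that reads GAGGAA on a strand. Capitals mark the matches.
P2ry12, chr3:59262986-59263235, minus strand: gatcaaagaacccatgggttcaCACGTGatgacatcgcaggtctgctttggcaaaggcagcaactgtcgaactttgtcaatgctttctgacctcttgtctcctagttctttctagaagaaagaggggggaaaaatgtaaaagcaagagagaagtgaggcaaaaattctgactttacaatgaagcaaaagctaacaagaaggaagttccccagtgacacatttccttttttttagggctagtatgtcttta
P2ry13, chr3:59210883-59211132, minus strand: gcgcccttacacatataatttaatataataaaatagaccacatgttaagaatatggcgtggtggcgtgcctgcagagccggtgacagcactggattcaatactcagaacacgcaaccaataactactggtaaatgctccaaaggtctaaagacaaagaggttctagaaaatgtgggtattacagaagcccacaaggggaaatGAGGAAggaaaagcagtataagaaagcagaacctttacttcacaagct
P2ry14, chr3:59153493-59153742, minus strand: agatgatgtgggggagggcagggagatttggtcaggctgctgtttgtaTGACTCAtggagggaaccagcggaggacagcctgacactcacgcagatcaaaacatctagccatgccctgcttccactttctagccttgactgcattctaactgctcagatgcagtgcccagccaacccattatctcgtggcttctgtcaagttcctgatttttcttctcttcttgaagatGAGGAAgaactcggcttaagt
Adora2b, chr11:62248734-62248983, plus strand: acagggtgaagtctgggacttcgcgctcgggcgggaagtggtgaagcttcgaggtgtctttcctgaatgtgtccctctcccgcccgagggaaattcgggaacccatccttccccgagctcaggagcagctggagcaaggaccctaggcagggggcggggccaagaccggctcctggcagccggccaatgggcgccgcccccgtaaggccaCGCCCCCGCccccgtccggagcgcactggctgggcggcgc

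*P2ry12* held CACGTG beginning 228 bases before its start, and 7.15% of all 32851 promoters of the table hold that motif. *P2ry14* has 4 promoters in RefSeq, of which the first is printed. *P2ry13* and the printed promoter of *P2ry14* held GAGGAA at 48 and 21 bases before their starts, a motif present in 28.3% of promoters and in all 4 of *P2ry14*. The printed promoter also held TGANTCA at 202 bases before its start, against 7.81% of promoters, a motif held by 2 of the 4. *Adora2b* held GCGGGGGCG on the opposite strand at 40 bases before its start, against 2.91% of promoters. TGACG is present in 20.8% of all promoters, ACGTG in 19.6% and GCGTGGGCG in 0.612%. Among the promoters not printed, those of *Entpd1* held TGACG and 1 of the 2 also GAGGAA, that of *Adora3* held TGANTCA and GAGGAA, and those of *P2ry2* held CACGTG. These matches describe letters in a window and were not tested against the expression values.

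Nearly the whole set was expressed at a higher level in macrophages labelled steatotic. At vehicle, 8 of the 9 tested genes were higher, 0 were lower and *P2ry2* passed the test in neither direction, where 16.4% of all 15202 tested genes were higher and 14.3% lower (edgeR quasi-likelihood test, adjusted p under 0.05). With CC, the same 8 genes were higher and 0 lower with the label steatotic, against 15.9% and 12.9% of all tested genes. CC itself divided the set. In macrophages with the label normal, *P2ry6*, *P2ry12*, *P2ry13* and *Entpd1* fell with CC and *Adora2a* rose, 4 and 1 of 9 genes where 5.54% of all tested genes fell and 6.27% rose. In those labelled steatotic, the same 4 genes fell and *Adora2a* and *Adora2b* rose, where 10.9% of all tested genes fell and 12% rose. The difference between these CC responses, tested as an interaction, was called for *P2ry6* alone, 1 of 9 genes on the lower side and 0 on the higher, against 1.27% and 1.95% of all tested genes. The median log2 difference of the 9 genes was 1.23 between labels at vehicle and 1.56 with CC, and −0.32 and −0.41 with CC in libraries labelled normal and steatotic. Over all tested genes the 4 medians lay between −0.01 and 0.00. The comparisons share groups of libraries, so their values are given side by side and were not correlated.

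**Figure D1:**
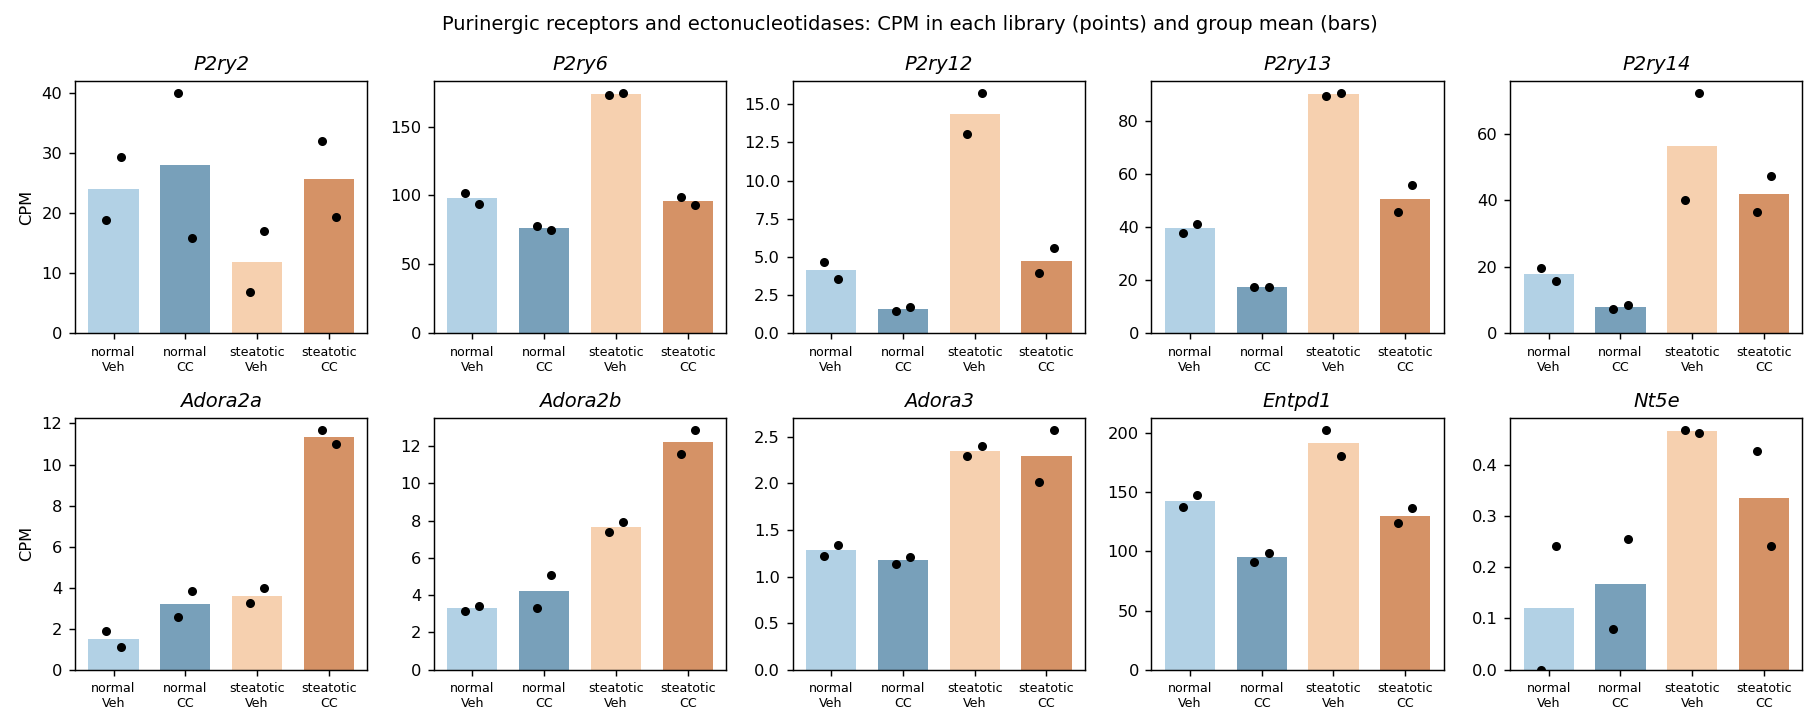
CPM of each of the 10 genes (y axis, from 0, a scale of its own in each panel) in the 4 groups (x axis), with points for the 2 libraries of a group and bars for their mean. In the libraries with Veh, the points of 8 of the 9 tested genes are higher with the label steatotic, and those of *P2ry2* are spread widely within each group.

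*P2ry12*, *P2ry13* and *P2ry14* encode receptors that couple to inhibitory G proteins. P2Y12 and P2Y13 respond to ADP, and P2Y12 is the target of clopidogrel on platelets and a marker of microglia in the brain. P2Y14 responds to UDP-glucose and related UDP-sugars.

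*P2ry12* was measured at 4.67 and 3.55 CPM under the label normal with Veh, and at 1.44 and 1.74 CPM in those with CC. With the label steatotic it was at 13.03 and 15.7 CPM with Veh and at 3.93 and 5.55 CPM with CC. Both Veh libraries labelled steatotic were the highest of the 8, and CC libraries were lower than Veh libraries of the same label without overlap. The log2 difference between labels at vehicle was 1.85 (SE 0.224, edgeR adjusted p = 0.000609), 3.61-fold. With CC it was 1.60 (SE 0.233, edgeR adjusted p = 0.00179). CC lowered the level by a log2 change of −1.33 with the label normal (SE 0.232, edgeR adjusted p = 0.00988) and of −1.58 with the label steatotic (SE 0.221, edgeR adjusted p = 0.00171). The difference between the responses was −0.25 (95% interval −0.99 to 0.49, edgeR adjusted p = 0.808). The fall with the label normal was lost without normal Veh replicate 1 (log2 change −1.12, edgeR adjusted p = 0.054) and without normal CC replicate 1 (−1.20, edgeR adjusted p = 0.0693), over a range of 2.2e-05 to 0.0693 in all alternatives.

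*P2ry13* followed the same order at a higher level. It was at 37.8 and 41.1 CPM with Veh and at 17.4 and 17.5 CPM with CC under the label normal. In those labelled steatotic it was at 89.4 and 90.4 CPM with Veh and at 45.5 and 55.7 CPM with CC. No pair of compared groups overlapped, and both steatotic CC libraries were above both normal Veh libraries. The log2 difference between labels was 1.23 at vehicle (SE 0.0947, edgeR adjusted p = 5.88e-05) and 1.56 with CC (SE 0.0966, edgeR adjusted p = 2.22e-05). The log2 change with CC was −1.14 with the label normal (SE 0.0958, edgeR adjusted p = 0.000355) and −0.81 with the label steatotic (SE 0.0938, edgeR adjusted p = 0.000656). The 4 calls held under every alternative. The difference between the responses was 0.33 (95% interval 0.02 to 0.64) and did not pass the adjustment over all genes (edgeR adjusted p = 0.323).

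*P2ry14* had the largest called difference between labels among the 10 genes, with CC. Its levels were 19.7 and 15.8 CPM with Veh and 7.31 and 8.57 CPM with CC under the label normal. With the label steatotic they were 40.1 and 72.2 CPM with Veh and 36.3 and 47.2 CPM with CC. Every steatotic library was above every normal library, but the 2 steatotic Veh libraries differed widely and the steatotic CC libraries overlapped them. The log2 difference between labels was 1.71 at vehicle (SE 0.321, edgeR adjusted p = 0.0133) and 2.42 with CC (SE 0.333, edgeR adjusted p = 0.00484), 5.35-fold. The call at vehicle was lost when the 4 Veh libraries alone were fitted (edgeR adjusted p = 0.077), without normal Veh replicate 1 (0.0567) and without normal Veh replicate 2 (0.0832), over a range of adjusted p from 7.72e-12 to 0.0832. The change with CC did not pass the test with either label, with log2 values of −1.12 for normal (SE 0.324, edgeR adjusted p = 0.099) and −0.41 for steatotic (SE 0.312, edgeR adjusted p = 0.439). With the label normal, where both CC libraries were below both Veh libraries, the change was called by DESeq2 (adjusted p = 6.32e-05), in the 4 normal libraries alone (edgeR adjusted p = 0.0082), without steatotic Veh replicate 1 (0.0167) and without steatotic Veh replicate 2 (0.0146), over a range of 6.32e-05 to 0.327.

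Of the other genes at this locus, *Gpr171*, an orphan receptor gene beside *P2ry14*, was at 0.136 to 0.320 CPM under the label normal and at 1.19 to 1.92 CPM in those labelled steatotic. It passed the filter only through the libraries labelled steatotic, and its 8 to 20 counts in the others are near the limit of detection, so no fold change is given. *Med12l* was at 0.273 to 2.57 CPM and was called in 1 of the 5 comparisons, between labels with CC (log2 difference 2.15, edgeR adjusted p = 0.0333). The normal CC libraries had 33 and 16 counts of it, near the limit of detection, so the size of this difference is uncertain. *P2ry1*, a further ADP receptor gene on this chromosome, was at 0.272 to 0.619 CPM and was not called in any of the 5 comparisons.

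*P2ry6* encodes a receptor for UDP that couples to Gq and calcium release and is known in phagocytes for its part in uptake of dying cells. It was at 101.9 and 93.6 CPM under the label normal with Veh and at 78.0 and 74.9 CPM with CC. With the label steatotic it was at 173.2 and 174.4 CPM with Veh and at 99.2 and 92.9 CPM with CC. The steatotic Veh libraries stood above the other 6, and the steatotic CC libraries overlapped the normal Veh libraries. Comparing labels, the log2 difference was 0.88 at vehicle (SE 0.0571, edgeR adjusted p = 2.61e-05) and 0.36 with CC (SE 0.0570, edgeR adjusted p = 0.00293). CC lowered the level by a log2 change of −0.32 with the label normal (SE 0.0570, edgeR adjusted p = 0.0111) and of −0.84 with the label steatotic (SE 0.0571, edgeR adjusted p = 4.61e-05). The fall was larger with the label steatotic, with a difference between the responses of −0.52 (SE 0.0804, 95% interval −0.71 to −0.33, edgeR adjusted p = 0.0156). This difference was lost without normal CC replicate 1 (−0.49, edgeR adjusted p = 0.0609) and without steatotic Veh replicate 2 (−0.52, edgeR adjusted p = 0.0614), over a range of 0.000194 to 0.0614. The fall with the label normal was lost without normal Veh replicate 1 (edgeR adjusted p = 0.0585) and without normal CC replicate 2 (0.0723), over a range of 0.00125 to 0.0723.

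*P2ry2* encodes a Gq-coupled receptor for ATP and UTP, known as a sensor of nucleotides released by dying cells. Its levels were 18.8 and 29.2 CPM with Veh and 40.0 and 15.9 CPM with CC under the label normal. With the label steatotic they were 6.89 and 16.9 CPM with Veh and 32.0 and 19.4 CPM with CC. Its standard errors, 0.674 to 0.958, were the largest of the 9 tested genes, and no comparison passed the test, with edgeR adjusted p-values of 0.342 to 0.943. The steatotic Veh libraries lay below both the normal Veh and the steatotic CC libraries. The log2 difference between labels at vehicle was −0.96 (SE 0.684, edgeR adjusted p = 0.366), and the log2 change with CC was 0.25 with the label normal (95% interval −1.52 to 2.03) and 1.13 with the label steatotic (SE 0.686). Without steatotic vehicle replicate 1 the difference between labels was −0.46 and the CC change with the label steatotic was 0.61, and without steatotic vehicle replicate 2 they were −1.75 and 1.91. The widths of these intervals leave changes of more than 2-fold within what the libraries allow.

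The adenosine receptors rose where they were called. *Adora2a* and *Adora2b* encode receptors that couple to stimulatory G proteins, and the product of *Adora2b* needs more adenosine for its activation. The receptor encoded by *Adora3* couples to inhibitory G proteins.

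*Adora2a* rose with CC under both labels. Under the label normal it was at 1.88 and 1.12 CPM with Veh and at 2.55 and 3.82 CPM with CC, and in those labelled steatotic at 3.26 and 3.97 CPM with Veh and at 11.7 and 11.0 CPM with CC. The steatotic CC libraries were the highest of the 8, and the normal CC and steatotic Veh libraries shared a range. The log2 change with CC was 1.67 with the label steatotic (SE 0.278, edgeR adjusted p = 0.00419), 3.17-fold. It was 1.12 with the label normal (SE 0.289, edgeR adjusted p = 0.0471). The rise with the label normal was lost under 9 alternatives, with a range of adjusted p of 0.00419 to 0.203. Among these, leaving out normal Veh replicate 2 gave a log2 change of 0.79 (edgeR adjusted p = 0.165) and leaving out normal CC replicate 2 gave 0.80 (edgeR adjusted p = 0.203). It was also lost without each of the 4 steatotic libraries, at edgeR adjusted p-values of 0.0733 to 0.0787, and in the 4 normal libraries alone at 0.111. Between labels, the log2 difference was 1.31 at vehicle (SE 0.288, edgeR adjusted p = 0.0113) and 1.86 with CC (SE 0.282, edgeR adjusted p = 0.00224). The difference at vehicle was lost without steatotic Veh replicate 2 (edgeR adjusted p = 0.0614), over a range of 0.000171 to 0.0614. The difference between the CC responses was 0.55 (95% interval −0.38 to 1.47, edgeR adjusted p = 0.623).

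*Adora2b* was at 3.16 and 3.44 CPM with Veh and at 3.32 and 5.08 CPM with CC under the label normal, and these groups overlapped. In those labelled steatotic it was at 7.41 and 7.90 CPM with Veh and at 11.6 and 12.9 CPM with CC, with every steatotic library above every normal one. Comparing labels, the log2 difference was 1.26 at vehicle (SE 0.200, edgeR adjusted p = 0.0025) and 1.57 with CC (SE 0.200, edgeR adjusted p = 0.000962), 2.97-fold. The log2 change with CC was 0.69 with the label steatotic (SE 0.195, edgeR adjusted p = 0.0391) and 0.38 with the label normal (SE 0.201, edgeR adjusted p = 0.293), and their difference was 0.31 (95% interval −0.34 to 0.96, edgeR adjusted p = 0.703). The rise with the label steatotic was lost without any 1 of 6 libraries. These were both normal Veh libraries (edgeR adjusted p = 0.0555 and 0.0573), both steatotic Veh libraries (0.163 and 0.119) and both steatotic CC libraries (0.0912 and 0.155), with a range over all alternatives of 0.00893 to 0.163.

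*Adora3* was the lowest of the tested receptors per length of exon. It was at 1.22 and 1.34 CPM with Veh and at 1.14 and 1.21 CPM with CC under the label normal, and at 2.30 and 2.41 CPM with Veh and 2.01 and 2.58 CPM with CC in those labelled steatotic. The libraries of the 2 labels did not overlap. Between labels, the log2 difference was 0.92 at vehicle (SE 0.218, edgeR adjusted p = 0.0154) and 0.99 with CC (SE 0.220, edgeR adjusted p = 0.0125), and the change with CC was −0.09 with the label normal (edgeR adjusted p = 0.858) and −0.02 with the label steatotic (edgeR adjusted p = 0.968). The difference at vehicle was lost without any 1 of the 4 Veh libraries, at edgeR adjusted p-values of 0.0509 to 0.0815 (range over all alternatives 0.014 to 0.0815). The difference with CC was lost without normal CC replicate 1 (edgeR adjusted p = 0.0622) and without steatotic CC replicate 2 (0.0732), over a range of 0.0126 to 0.0732. Exons of *Tmigd3*, on the same strand, share 779 bases with those of *Adora3*, and *Tmigd3* itself was assigned 0 to 4 counts.

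*Entpd1*, the CD39 gene, was higher with the label steatotic and fell with CC under both labels. It was at 137.5 and 147.6 CPM with Veh and at 91.4 and 98.6 CPM with CC under the label normal. In those labelled steatotic it was at 203.0 and 180.5 CPM with Veh and at 123.7 and 136.4 CPM with CC. Compared groups did not overlap. Comparing labels, the log2 difference was 0.47 at vehicle (SE 0.0776, edgeR adjusted p = 0.0029) and 0.48 with CC (SE 0.0778, edgeR adjusted p = 0.00312). CC lowered it by nearly the same amount with both labels, a log2 change of −0.55 for normal (SE 0.0779, edgeR adjusted p = 0.00385) and −0.54 for steatotic (SE 0.0777, edgeR adjusted p = 0.0019). The difference between these responses was 0.01 with a 95% interval of −0.25 to 0.26, and the 4 calls held under every alternative.

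*Nt5e*, which encodes the enzyme that makes adenosine from AMP, was near the limit of detection in these cultures. It had 0 and 16 counts with Veh and 5 and 15 counts with CC under the label normal, and 32 and 34 counts with Veh and 28 and 18 counts with CC in those labelled steatotic. The highest level was 0.468 CPM, under the filter, and no fold change or test is given. The steatotic Veh libraries were the highest of the 8, at 0.468 and 0.462 CPM, and the ranges with CC were 0.0801 to 0.256 CPM for normal and 0.242 to 0.427 CPM for steatotic. Of the 6 other P2Y and adenosine receptor genes on the list, *P2ry4*, *Gpr17* and *Adora1* were also under the filter, while *P2ry10b* was at 20.3 to 68.0 CPM.

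**Figure D2:**
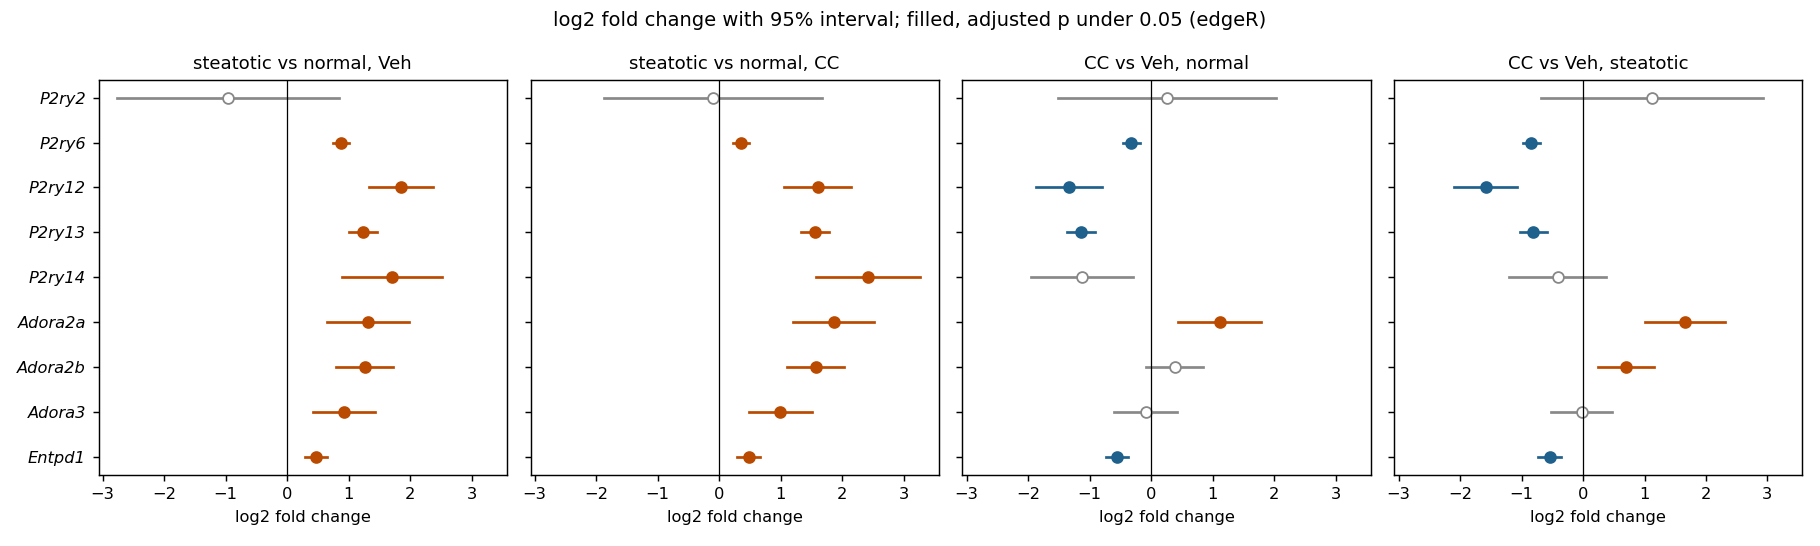
log2 fold change (x axis) of the 9 tested genes (y axis) in 4 comparisons, with edgeR 95% intervals as lines, filled points for an adjusted p under 0.05 and open points otherwise. In both comparisons of labels 8 points lie above 0 and are filled, and with CC the P2Y receptor genes *P2ry6*, *P2ry12* and *P2ry13* and *Entpd1* lie below 0 while *Adora2a* lies above it.

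Levels of different genes were compared per kilobase of annotated exon. In the steatotic Veh libraries *P2ry6* was highest with a mean of 60.2 CPM per kb, ahead of *P2ry13* at 35.6 and *Entpd1* at 34.4, and the latter pair did not differ beyond their spread, with libraries at 35.4 to 35.8 and 32.3 to 36.4. *P2ry12* (5.65), *P2ry14* (5.08), *Adora2b* (4.15) and *P2ry2* (3.03) followed with ranges that overlapped between neighbours. *Adora2a* at 1.18, *Adora3* at 0.631 and *Nt5e* at 0.0541 CPM per kb came last, with no overlap between neighbours. In the steatotic CC libraries *Adora2b* had a mean of 6.63 and *Adora2a* of 3.71 CPM per kb, while *P2ry12* had 1.86 and *P2ry14* 3.78, so that the order of these 4 genes was different. In the normal Veh libraries *P2ry6* was at 33.9, *Entpd1* at 25.5 and *P2ry13* at 15.6 CPM per kb, with no overlap between them. The exons of *P2ry14* together cover 11.1 kb over its 9 annotated transcripts, and its level per length depends on which of them were used, which the gene counts do not give.

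**Figure D3:**
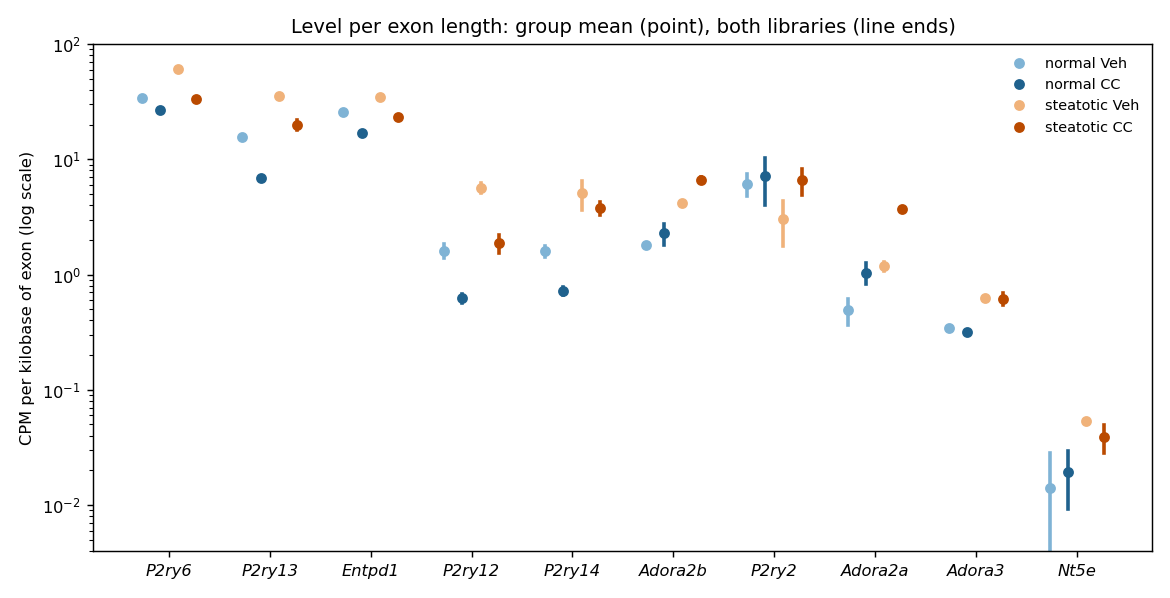
CPM per kilobase of exon (y axis, log scale) of the 10 genes (x axis, in order of the steatotic Veh mean), with points for group means and lines between the 2 libraries of a group. *P2ry6*, *P2ry13* and *Entpd1* lie above the other genes in each group, except that *P2ry13* in normal CC (6.91) lies below *P2ry2* (7.11), and the *Nt5e* line for normal Veh runs to the lower edge because 1 library was at 0, which a log axis cannot show.

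The genes whose pattern over the 8 libraries was most like that of a member were named by the Pearson correlation of log2 CPM, among 9989 genes with a mean of at least 5 CPM. These values describe 4 groups that already differ in many genes and have no p. *P2ry13* was closest to *Ankrd44* (r = 0.997) and *Nlrp1b* (0.996) and *P2ry12* to *Bco2* (0.996) and *Cnp* (0.996). *P2ry6* was closest to *Nxpe4* (0.995) and *Bin2* (0.993), and *Entpd1* to *Tpst1* (0.996) and *Ahsa1* (0.991). *Adora2a* was closest to *Rsl1* (0.986) and *Naip1* (0.985), *Adora2b* to *Aqp9* (0.992) and *Zfp984* (0.990), *Adora3* to *Ddx60* (0.992) and *Ms4a4a* (0.990), and *P2ry2* to *Gm10557* (0.959) and *Cep162* (0.950). Within the set, the highest r was 0.973 for *P2ry12* with *P2ry13*, followed by 0.951 for *P2ry12* with *Entpd1* and with *P2ry6*, 0.948 for *P2ry13* with *Entpd1*, 0.938 for *P2ry13* with *P2ry14* and 0.928 for *P2ry14* with *Adora3*. The lowest were −0.666 for *P2ry2* with *Entpd1* and −0.653 for *P2ry2* with *P2ry6*.

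The rest of the purinergic system was read from 7 lists of 67 genes, of which 48 were tested. At vehicle 16 of them were higher and 5 lower with the label steatotic, where 16.4% and 14.3% of all tested genes were, and with CC 12 were higher and 11 lower, against 15.9% and 12.9%. CC raised 9 and lowered 9 with the label normal, against 6.27% and 5.54% of all tested genes, and raised 9 and lowered 10 with the label steatotic, against 12% and 10.9%. These counts hold genes that passed the filter only through libraries where they were higher, and such calls are not read as results. Among them are *P2ry10*, in the 16 and in the 9 raised with the label normal, and *Plcb1*, in the 12. *Plcb1* had 3 to 12 counts in the libraries labelled normal. The difference between the CC responses was called for 1 gene on the higher and 3 on the lower side, against 1.95% and 1.27%. The medians of the 48 log2 values were 0.18 between labels at vehicle, 0.08 with CC, and −0.05 and 0.01 for CC with the labels normal and steatotic.

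Among the ATP-gated P2X channels, 2 of 7 genes were tested. *P2rx4* was at 301.4 ± 7.07 CPM (SD, n = 2) under the label normal and 390.6 ± 10.6 CPM in those labelled steatotic at vehicle, with a log2 difference of 0.42 (edgeR adjusted p = 0.000831), and of 0.59 with CC (edgeR adjusted p = 0.000174). *P2rx7*, a channel that activates the NLRP3 inflammasome at high ATP, rose with CC by a log2 change of 0.29 with the label normal (edgeR adjusted p = 0.00374) and of 0.21 with the label steatotic (edgeR adjusted p = 0.00742). Among 3 tested genes of the other P2Y and adenosine receptors, *P2ry10*, a lysophosphatidylserine receptor, was at 0.347 to 0.354 CPM in the normal Veh libraries and at 0.922 to 1.23 CPM in all others. It passed the filter only through those other libraries, so its calls against normal Veh are not read as results. Its paralog *P2ry10b*, with which it may share reads, was not called in any comparison.

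Of the other enzymes acting on extracellular nucleotides, 5 of 10 genes in the table were tested. *Cd38* and *Bst1* encode enzymes that consume NAD outside the cell. *Cd38* was at 121 ± 5.48 CPM in normal Veh and 242.6 ± 5.56 CPM in steatotic Veh (log2 difference 1.05, edgeR adjusted p = 8.94e-06), and rose with CC by 0.31 with the label normal (edgeR adjusted p = 0.0106) and 0.53 with the label steatotic (edgeR adjusted p = 0.000347). *Bst1* was 4.75-fold higher in steatotic Veh (log2 difference 2.25, edgeR adjusted p = 3.56e-05). *Enpp1*, which splits ATP into AMP and pyrophosphate, fell with CC, by a log2 change of −0.78 with the label normal (edgeR adjusted p = 0.0243) and of −1.58 with the label steatotic (edgeR adjusted p = 0.000509).

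All 7 genes of adenosine uptake and removal were tested. *Ada*, which converts adenosine to inosine, fell with CC from 8.35 ± 0.388 to 5.14 ± 0.785 CPM with the label normal (log2 change −0.66, edgeR adjusted p = 0.0236) and from 9.35 ± 0.716 to 4.11 ± 0.0376 CPM with the label steatotic (−1.17, edgeR adjusted p = 0.000902). *Pnp*, the next enzyme of this route, also fell, by log2 changes of −0.27 and −0.19 (edgeR adjusted p = 0.00248 and 0.00588). The nucleoside transporter *Slc28a2* was higher with the label steatotic at vehicle by 0.94 (edgeR adjusted p = 1.1e-05), and *Slc29a3*, a transporter of lysosomes, rose with CC by 0.42 and 0.49 (edgeR adjusted p = 0.00229 and 0.000476).

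Of the 5 genes of nucleotide release, *Panx1*, the pannexin channel of ATP release, was lower with the label steatotic at vehicle, 4.56 ± 0.130 against 11.9 ± 0.319 CPM (log2 difference −1.34, edgeR adjusted p = 8.23e-05). *Gja1*, which encodes connexin 43, was higher by 1.18 (edgeR adjusted p = 0.000768). *Calhm2* fell with CC by log2 changes of −0.65 and −0.50 with the labels normal and steatotic (edgeR adjusted p = 0.00111 and 0.00181).

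Downstream of the receptors, 17 of 21 genes of G proteins, phospholipase C beta and adenylyl cyclases were tested, and all 3 called differences between CC responses on the lower side were in this list. *Adcy3*, an enzyme that makes cyclic AMP, was at 75.6 ± 0.266 CPM with Veh and 43.6 ± 0.948 CPM with CC under the label normal, and at 55.9 ± 0.468 and 14.4 ± 0.788 CPM in those labelled steatotic. Its difference between responses was −1.18 (SE 0.0824, edgeR adjusted p = 0.00116). *Adcy4*, a further adenylyl cyclase, had −0.60 (edgeR adjusted p = 0.0452) and *Gna15*, a Gq family subunit of blood cells, had −0.86 (edgeR adjusted p = 0.0474). Among 9 tested cyclic AMP response genes, CC raised 3 with the label normal and 4 with the label steatotic, where 6.27% and 12% of all tested genes rose, and lowered 0, where 5.54% and 10.9% fell. *Nr4a1* rose from 12.5 ± 0.592 to 19.1 ± 0.261 CPM (log2 change 0.65, edgeR adjusted p = 0.00331) and from 6.95 ± 0.394 to 14.3 ± 0.293 CPM (1.06, edgeR adjusted p = 0.00014). *Thbs1* was at 24.4 ± 2.29 CPM in normal Veh and 208.6 ± 8.84 CPM in steatotic Veh, and its CC response was the 1 called on the higher side (difference 0.89, edgeR adjusted p = 0.00531).

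**Figure D4:**
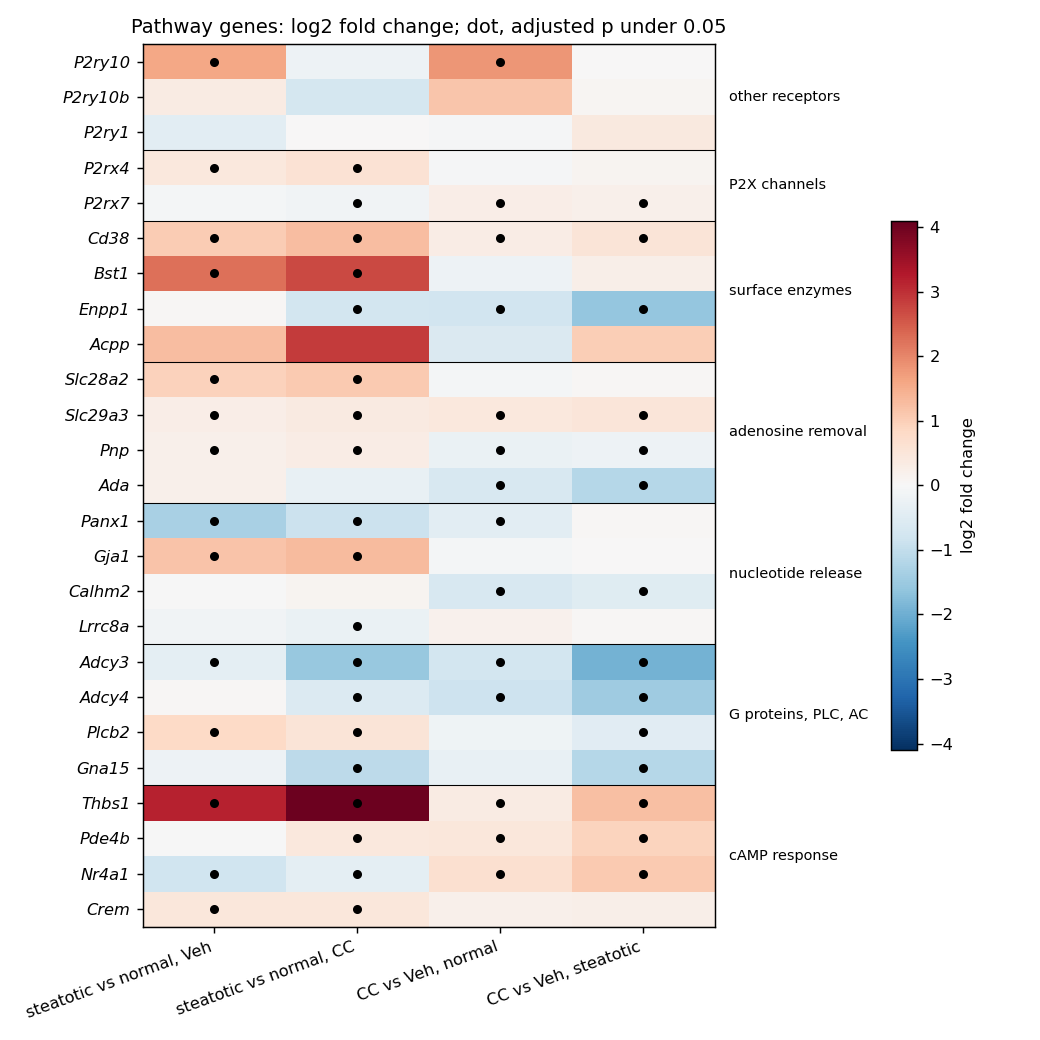
log2 fold change (colour, red higher and blue lower) of the named genes of 7 purinergic lists (rows) in 4 comparisons (columns), with a dot for an edgeR adjusted p under 0.05. *Enpp1*, *Ada*, *Adcy3* and *Adcy4* are blue with a dot in both CC columns, and *Cd38* is red with a dot in all 4.

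Markers of other cells moved with the liver label. The monocyte list had summed levels of 20.9 to 22.0 CPM in normal Veh, 14.3 to 14.9 in normal CC, 185.1 to 186.6 in steatotic Veh and 156.0 to 173.6 in steatotic CC. *Ly6c2*, *Plac8*, *Vcan* and *S100a4*, over 1 CPM in every library, were each called higher with the label steatotic at vehicle and with CC. T and NK cell markers summed to 1.24 to 1.44, 0.801 to 1.04, 13.6 to 15.7 and 11.5 to 11.5 CPM, and all 8 passed the filter only through the libraries labelled steatotic. Of 7 tested sinusoidal endothelial markers, 4 were higher and 1 lower at vehicle, against 16.4% and 14.3% of all tested genes, with sums of 77.9 to 81.4, 83.3 to 86.0, 249.6 to 254.1 and 169.5 to 173.1 CPM. Most of the rise at vehicle was in *Pecam1*, *Dnase1l3* and *Kdr*, from means of 26.1, 5.63 and 11.7 CPM to 95.2, 90.1 and 33.9 CPM. *Stab2* went the other way, from 25.7 to 19.8 CPM. *Oit3* was at 8.32 and 8.70 CPM, and *Clec4g* stayed at or below 0.304 CPM. The platelet list summed to 13.7 to 15.5, 12.9 to 13.3, 79.3 to 82.1 and 69.2 to 69.5 CPM, of which *Pf4* was the 1 called gene, and *Ppbp*, *Itga2b*, *Gp9* and *Treml1* stayed between 0 and 0.369 CPM. Mast cell and basophil markers summed to 14.2 to 14.8, 15.6 to 16.5, 4.66 to 6.37 and 8.78 to 12.6 CPM, nearly all of it *Tpsab1*, which was lower with the label steatotic at vehicle (log2 difference −1.31, edgeR adjusted p = 0.0024) and rose with CC under that label (0.96, edgeR adjusted p = 0.0128), and 3 of 7 were at 0 in every library. B cell markers summed to 3.81 to 7.29 CPM. Dendritic cell markers summed to 5.54 to 5.81, 10.2 to 10.7, 9.81 to 10.0 and 8.61 to 9.38 CPM and moved both ways at vehicle, with *Xcr1* and *Clec9a* higher and *Ccr7* lower with the label steatotic. Between labels at vehicle, 4 of 8 macrophage and 4 of 8 Kupffer cell markers were higher and 3 of each were lower. Hepatocyte marker sums were 152.4 to 160.9, 118.9 to 132.3, 108.8 to 122.5 and 52.4 to 58.3 CPM. *Trf* made up the largest part, at means of 97.9, 71.5, 110.3 and 49.3 CPM. *Alb* was at 41.0 to 49.4 CPM under the label normal and at 1.24 to 2.31 CPM under the label steatotic. *Apob* went the other way, at 1.28 to 2.46 and 2.91 to 4.18 CPM. At vehicle 0 of 7 tested genes were higher and 3 lower with the label steatotic, and with CC 1 and 4. Of all tested genes, 14.3% and 12.9% were lower. The tested markers other than *Alb*, *Apob* and *Trf* passed the filter only through libraries labelled normal. The part of these cells in the differences of the receptors between labels was not tested.

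With CC, 6 of 8 macrophage markers fell and *Cd14* rose with the label normal, and 5 of 8 fell and *Cd14* and *Cd68* rose with the label steatotic. Of 8 Kupffer cell markers, 3 fell with the label normal, and 6 fell and *Marco* rose with the label steatotic. Of all tested genes, 5.54% and 10.9% fell. The macrophage sums were 15755 to 16171 CPM in normal Veh, 12921 to 13047 in normal CC, 11276 to 11462 in steatotic Veh and 10019 to 10892 in steatotic CC. *Lyz2* made up the largest part, at means of 8068 CPM in normal Veh and 3510 CPM in steatotic Veh. *Cd68* and *Cd14* were also lower in steatotic Veh. *Adgre1*, the gene of the sorting antigen, went the other way, from 1075 to 1734 CPM, as did *Fcgr1* and *Aif1*. The Kupffer cell sums were 4168 to 4221, 3331 to 3563, 5034 to 5077 and 3304 to 3875 CPM, of which *Cd5l* made up the largest part. Neutrophil markers summed to 56.3 to 59.2, 89.0 to 90.7, 99.6 to 102.5 and 259.1 to 262.9 CPM, with 2 of 6 tested and *Ly6g* at 0 in every library. Most of this sum was *Mmp8*, at means of 48.2, 75.2, 96.1 and 242 CPM, while *S100a8* was at 9.51, 14.6, 4.87 and 18.8 CPM and *S100a9*, *Retnlg* and *Cxcr2* stayed at or below 0.282 CPM. Stellate cell markers rose in sum from 4.33 to 4.61 CPM in normal Veh, through 8.28 to 9.85 in normal CC and 18.9 to 22.7 in steatotic Veh, to 109.5 to 136.8 in steatotic CC, and *Lrat*, *Reln*, *Col1a1*, *Col3a1*, *Pdgfrb* and *Des* were under the filter. The rise was in *Dcn*, from a mean of 2.10 CPM in normal Veh to 121.4 CPM in steatotic CC, and the other tested gene, *Rgs5*, was lower with the label steatotic with CC (log2 difference −1.05, edgeR adjusted p = 0.0229). The part of these shifts in the CC responses of the receptors was not tested.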

How the data were processed

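Poly(A) RNA of cultured hepatic macrophages was sequenced in 8 libraries with 150 bp paired-end reads from a directional kit. The authors used fastp for trimming, HISAT2 for alignment to mm10 and StringTie for quantification (versions not given in the sources used here). They deposited estimated counts (expected counts) for 55401 genes, whole numbers with no normalization. Small values are in excess multiples of 4 (35.0 to 36.5% of values from 1 to 20), so 1 fragment was assumed to give about 4 counts for the detection limit. The conversion to counts is not described. Strand use in counting was not given, so antisense reads cannot be told apart.

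In R 4.3.3, 15202 genes that reached 0.5 CPM in any library entered 1 edgeR 4.0.16 model of 4 group means, with TMM factors, robust glmQLFit and glmQLFTest. Benjamini-Hochberg adjustment was over all tested genes in each comparison, with a threshold of 0.05. CPM used the library total. Standard errors were the log2 change over the square root of F. Positions and exon lengths are from GENCODE M21 (GRCm38), in which all 10 genes matched.

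Members and lists were chosen with earlier results of these data known. From each pathway list, up to 4 genes with the lowest adjusted p were named, and for each tested member the 2 most correlated genes, except that those of *P2ry14* are not reported here. Alternatives were DESeq2 1.42.0, its size factors, no TMM, other filters, counts divided by 4, the libraries of a comparison alone, a block for the replicate number and each library left out. The fit was also run on simulated data, and the outcome is not reported here. Replicate numbers did not pair the libraries.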

Additional observations from a re-analysis of the deposited data

Results flagged for a closer look

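The CC response of *P2ry6* differed between the liver labels by the test of the difference itself, which is why it is listed here. The log2 change with CC was −0.84 with the label steatotic and −0.32 with the label normal, and the difference was −0.52 (SE 0.0804, edgeR quasi-likelihood test, adjusted p = 0.0156 over all 15202 tested genes). Both CC libraries were below both Veh libraries with each label. The adjusted p ranged from 0.000194 to 0.0614 over the alternatives, and passed the threshold in all but those without normal CC replicate 1 (−0.49, adjusted p = 0.0609) and without steatotic Veh replicate 2 (−0.52, adjusted p = 0.0614).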

How the results depend on the processing

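Of 711 values recomputed under the alternatives, 660 kept their direction and side of the threshold, 31 lost a call, 4 gained one and 16 turned in direction. Of 28 calls, 19 held under every alternative. Members called numbered 8 between labels at vehicle (6 to 8 with a library left out, 7 to 8 otherwise), 5 for CC with the label normal (3 to 5 and 4 to 6), 6 for CC with the label steatotic (5 to 6), 8 between labels with CC (7 to 8) and 1 for the difference between responses (0 to 1). The turned values were never called: with a library left out, *P2ry2* ranged from −0.56 to 0.77 for CC with the label normal and from −0.61 to 0.72 between labels with CC, *P2ry14* from −0.78 to 0.075 and *Adora3* from −0.21 to 0.15 for CC with the label steatotic, and the difference between responses from −0.12 to 0.24 for *Adora3* and from −0.078 to 0.085 for *Entpd1*. For *Entpd1* that difference was also −0.000803 with DESeq2, −0.000923 with its size factors and −0.00136 with the filter in 2 libraries. With the replicate number as a block, *Adora2a* with CC at the label normal was no longer called (log2 change 1.11, edgeR adjusted p = 0.0903), members called for that comparison were 4, and no other call changed. Deviations of same-numbered libraries correlated by −0.00410 to 0.0603, so the block shares only a number. A group left with 1 library was assumed to vary like the others. Groups of 2 libraries limit all statements, and *Nt5e* could not be tested at this depth.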
